A study of Mus musculus with 8 samples.

Results

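Transcripts of 33 genes of cholesterol and fatty acid synthesis were followed in mouse prefrontal cortex. The genes were chosen by symbol, as enzymes of both pathways and the proteins that regulate them. All 33 were among the 24420 genes common to the count tables, and all 33 passed the filter on low counts that left 14809 genes tested. RNA came from 3 groups of male mice. The wild-type group (3 libraries) consisted of littermates for which the labels name no treatment. The saline group (3 libraries) consisted of heterozygous Shank3+/ΔC mice, which carry a C-terminal deletion (exon 21) in Shank3, a scaffold protein of excitatory synapses, and received saline. The romidepsin group (2 libraries) carried the same deletion and received romidepsin, an inhibitor of histone deacetylases, intraperitoneally at 0.25 mg/kg once daily for 3 days, with tissue taken 1 day after the last dose. The mice were 5 to 6 weeks old per the sample labels, while the series design gives 5 to 8 weeks. Since the treatment of wild type is not named, genotype and any effect of the saline injections cannot be told apart in saline against wild type. Whether the libraries stem from separate animals is not in the labels, so p-values measure only the spread between libraries, which may be technical.

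Cells make cholesterol from acetyl-CoA through mevalonate, isoprenoid pyrophosphates, squalene and lanosterol. The brain makes its own cholesterol, because lipoproteins of the blood hardly cross the blood-brain barrier, and oligodendrocytes and astrocytes are major producers. When membrane sterol is low, Scap carries the precursors of the SREBP transcription factors (encoded by Srebf1 and Srebf2) from the endoplasmic reticulum to the Golgi, where they are cut and released. They then raise transcription of genes of sterol synthesis and, for SREBP-1 in particular, of fatty acid synthesis, while Insig1 retains the complex when sterol is plentiful.

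The 250 bases before the RefSeq start (GRCm38.p6) are shown for 3 members named in the comparisons below. They are Hmgcs1 (chr13:119690101-119690350, plus strand), Pmvk (chr3:89454291-89454540, plus strand) and Fasn (chr11:120824548-120824797, minus strand). Each is written 5′ to 3′ on the strand of its gene, and capitals mark matches on either strand to the sterol element TCACNCCAC, the CCAAT box CCAAT, the GC box GGGCGG and the E-box CACGTG.
Hmgcs1: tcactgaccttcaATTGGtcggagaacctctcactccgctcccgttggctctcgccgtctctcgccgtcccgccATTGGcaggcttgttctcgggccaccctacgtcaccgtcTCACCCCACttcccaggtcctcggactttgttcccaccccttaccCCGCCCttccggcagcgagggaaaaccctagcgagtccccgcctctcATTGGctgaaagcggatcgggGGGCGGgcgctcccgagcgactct
Pmvk: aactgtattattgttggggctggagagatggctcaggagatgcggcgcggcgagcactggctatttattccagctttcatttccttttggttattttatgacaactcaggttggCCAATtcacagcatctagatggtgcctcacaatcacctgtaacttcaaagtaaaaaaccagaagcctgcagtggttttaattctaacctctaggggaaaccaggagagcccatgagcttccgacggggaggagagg
Fasn: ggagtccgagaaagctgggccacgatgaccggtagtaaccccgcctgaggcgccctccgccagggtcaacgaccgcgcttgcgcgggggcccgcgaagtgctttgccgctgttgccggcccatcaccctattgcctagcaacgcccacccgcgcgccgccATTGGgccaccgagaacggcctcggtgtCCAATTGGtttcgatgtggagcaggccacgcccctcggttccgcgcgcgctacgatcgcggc
In Hmgcs1 the sterol element TCACCCCAC began 137 bases before the start, with 3 CCAAT boxes and 2 GC boxes around it. In Fasn the run CCAATTGG holds 2 overlapping matches, 1 on each strand. The windows searched in all genes also held the 50 bases after the start, and 26 of the 33 members had such a window among 27025 genes. Fdps, Fdft1, Sqle, Stard4, Scd1, Scd2 and Fads1 had no window and were not searched. Hmgcs1 was the only one of the 26 with a match to the classical sterol element. For Pmvk, the bases before another RefSeq start (chr3:89459321-89459570, plus strand) held no match to any of these elements. A CCAAT box was in the windows of 21 of 26 members (80.8%) and 41.1% of all genes, and a GC box in 21 of 26 (80.8%) and 38.2%. An E-box was in 5 of 26 (19.2%) against 8.09%, and the sterol element in 1 of 26 (3.85%) against 1.44%. These are matches of letters and not measured binding.

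The libraries held 7783538 to 15156318 counts on genes, and a member had 83 to 25783 counts in a library. Levels are given as CPM, read counts divided by the library total after TMM scaling, which corrects for differences in composition. Shank3 itself stood at 299, 308 and 348 CPM in wild type, 316, 252 and 301 CPM with saline, and 315 and 313 CPM with romidepsin, with groups that overlapped, and reads from exons outside the deletion are counted, so its level does not check the genotype. The labels call the cell type neurons and the tissue prefrontal cortical slices, and markers of glia were abundant: the 10 astrocyte markers summed to 5664 to 7447 CPM and the 10 oligodendrocyte markers to 3095 to 5699 CPM, against 12264 to 14299.6 CPM for the 10 neuron markers. In such bulk tissue, fewer cells of a type and less RNA per cell cannot be told apart. The 5 olfactory bulb markers summed to 9.77, 6.63 and 21.6 CPM in wild type, 9.63, 34.9 and 35.9 CPM with saline, and 7.19 and 8.75 CPM with romidepsin, and the 8 meningeal and fibroblast markers to 94.1, 89.9 and 150.1 CPM in wild type, 225, 183 and 94.1 CPM with saline, and 167 and 115 CPM with romidepsin. The 8 microglial markers summed to 479.8, 519.8 and 668 CPM in wild type, 599, 529.8 and 591 CPM with saline, and 666 and 589.7 CPM with romidepsin, and the 5 markers of oligodendrocyte precursors to 303, 355 and 428 CPM in wild type, 361, 282 and 354 CPM with saline, and 381 and 369 CPM with romidepsin. Every marker except Tbx21 of the olfactory bulb list had counts in all 8 libraries. The part of these cell types in the results was not tested.

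Per kilobase of exon (GENCODE M21), the members' mean wild-type levels ran from 298 ± 36.9 CPM per kb (SD, n = 3) for Scd2 to 2.73 ± 0.223 for Lbr. Scd2, a stearoyl-CoA desaturase that makes oleate, ranked 50 of 14238 genes with a length and was by far the highest of the members. It took 30.9% to 35.7% of the members' summed CPM in the 8 libraries. After it came Hmgcs1, the cytosolic HMG-CoA synthase, at 80.4 ± 4.17 CPM per kb, Fads1, the delta-5 desaturase of polyunsaturated fatty acids, at 65.0 ± 10.1, and Scd1 at 47.3 ± 6.55. The lowest, beside Lbr, were Tm7sf2, which shares the sterol C14-reductase step with Lbr, at 3.33 ± 0.489, and the lanosterol synthase Lss at 4.09 ± 0.631. Of the 32 pairs of neighbours in the order of levels, 22 had wild-type ranges that overlapped and 10 did not. Between paralogs, Scd2 stood 5.58 to 7.01 times above Scd1 per kb in every library, and Srebf2 3.75 to 5.70 times above Srebf1.

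**Figure D1:**
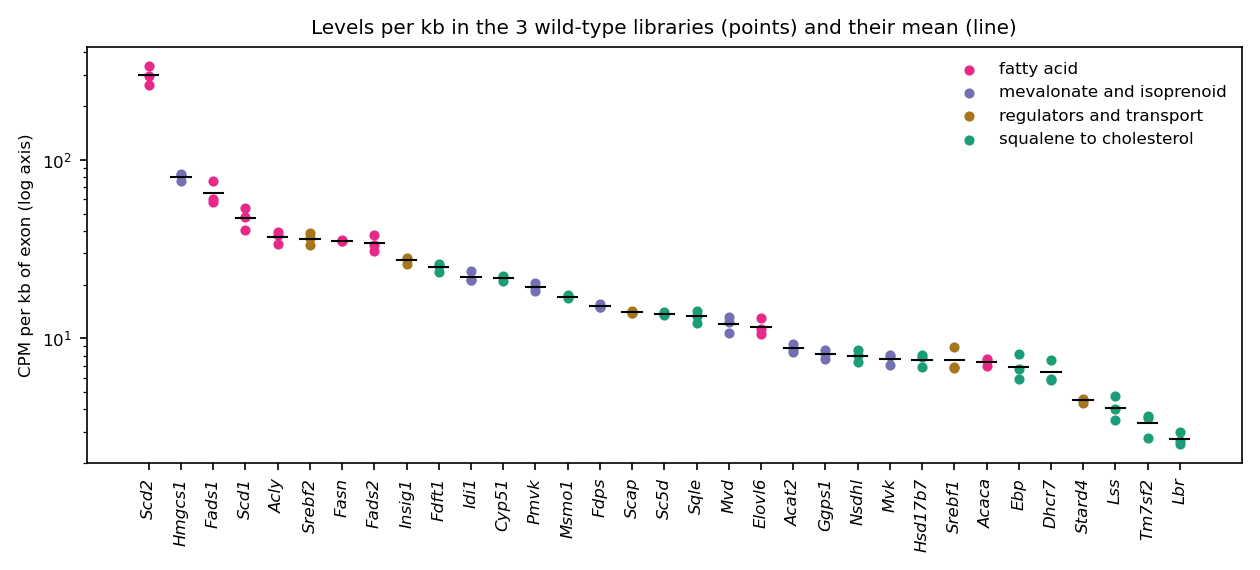
CPM per kb of exon (log axis) of the 33 genes in the 3 wild-type libraries (points) with their mean (line), ordered by mean and coloured by role. Scd2 stands alone at the top, and most other neighbours overlap.

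No member passed in saline-treated mutants against wild type, at a Benjamini-Hochberg adjusted p under 0.05 in edgeR's quasi-likelihood test: 0 of 33, where 1 of 14809 genes did (0.00675%). At an unadjusted p under 0.05 there were 5 members, all higher in the saline group: Acat2, Hmgcs1, Idi1, Fdft1 and Insig1. Among all genes 8.39% reached that level and 3.59% did so upward. The 8 mevalonate and isoprenoid genes had fold changes above 1 in 8 of 8 (median log2 0.15) and the 12 genes from squalene to cholesterol in 10 of 12 (0.051), but the 8 fatty acid genes in 1 of 8 (-0.028). With each library left out in turn the mevalonate genes had 7 or 8 of 8 above 1 (median 0.13 to 0.18). The fatty acid count depended on the libraries: it was 6 of 8 (0.052) without saline replicate 2, 4 of 8 (0.011) without wild-type replicate 3 and 2 of 8 without saline replicate 1, wild-type replicate 1 or wild-type replicate 2. The count from squalene to cholesterol was 6 of 12 (-0.0043) without saline replicate 3. Over all members, 22 of 33 were above 1 (median log2 0.049), against 51.3% of all genes (0.0047). The groups did not overlap for 5 members, all higher (Acat2, Hmgcs1, Pmvk, Fdft1 and Stard4), against 12.6% of all genes in either direction and 6.26% upward. Without saline replicate 3 the members' median was -0.01 with 16 of 33 above 1, and without wild-type replicate 3 the number of genes called in all went from 1 to 54, with 0 members. Endothelial and mural markers were above 1 in 1 of 10 (median log2 -0.41), with 6 lower at an unadjusted p under 0.05. Meningeal and fibroblast markers had 8 of 8 (0.63), with 5 at such a p, and olfactory bulb markers 4 of the 4 tested (1.22), with 2. Microglial markers had 7 of 8 (0.065), astrocyte 6 of 10, neuron 5 of 10, oligodendrocyte 1 of 10 and precursor markers 1 of 5. Of these, 1 precursor marker had such a p. The part of these cell types was not tested.

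**Figure D2:**
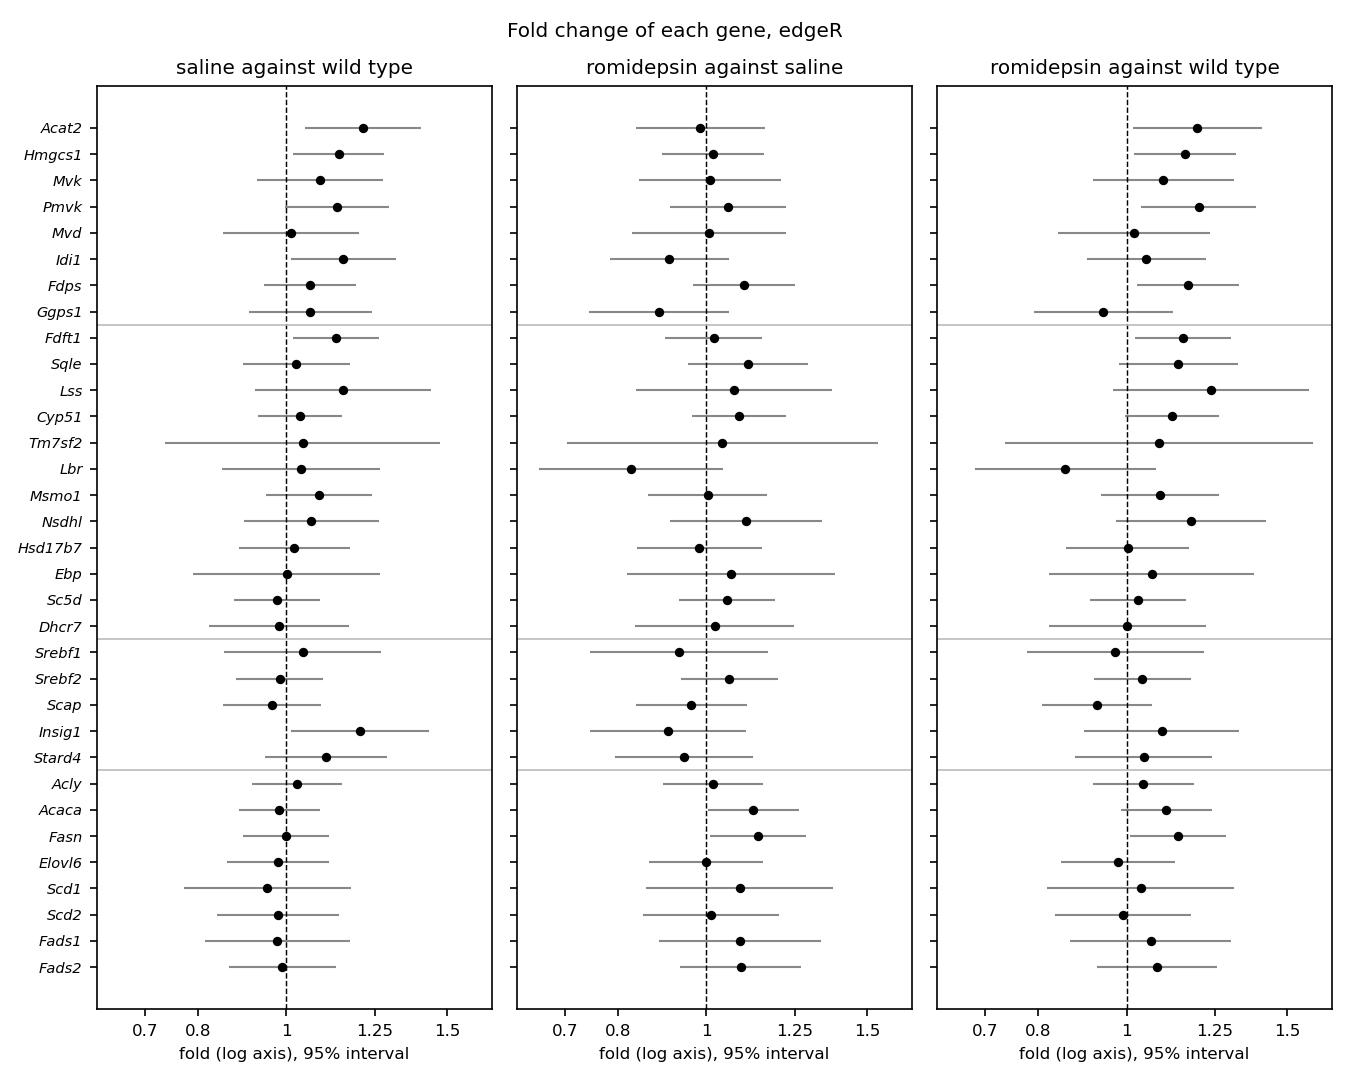
Fold change (log axis) of each member with its 95% interval from edgeR, for the 3 comparisons. Lines divide, from the top, the mevalonate and isoprenoid genes, squalene to cholesterol, regulators and transport, and fatty acid synthesis. In saline against wild type all 8 points of the top block lie above 1, and the fatty acid points lie close to 1.

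Of the mevalonate genes, Acat2 (chr17:12942890-12960747, minus strand in GRCm38, as for all coordinates of genes here), the cytosolic thiolase that joins acetyl-CoA units, stood at 21.3, 22.1 and 23.7 CPM in wild type, 26.4, 26.2 and 29.0 CPM with saline, and 27.3 and 26.1 CPM with romidepsin. All 5 mutant libraries were above all 3 wild-type libraries. In saline against wild type its fold was 1.21 (95% interval 1.05 to 1.40, log2 0.28, SE 0.10), with an adjusted p of 0.445 in edgeR. Of the 50-base stretches of Acat2's transcripts, 45.9% also occur in those of Acat3, a neighbouring copy of the gene, so reads could be divided between them or set aside as not unique. Acat3 stood at 37.1, 31.8 and 28.4 CPM in wild type, 33.3, 29.0 and 32.4 CPM with saline, and 30.2 and 34.3 CPM with romidepsin. For the sum of Acat2 and Acat3 the groups overlapped, at 58.4, 53.9 and 52.1 CPM in wild type, 59.7, 55.2 and 61.4 CPM with saline, and 57.5 and 60.4 CPM with romidepsin.

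Hmgcs1 (chr13:119690379-119708260, plus strand), whose promoter is shown above, stood at 384, 377 and 348 CPM in wild type, 421, 402 and 441 CPM with saline, and 454 and 403 CPM with romidepsin. Exons of the opposite-strand gene Gm48342 overlap 12.1% of its exon bases, and without a stated strand setting such reads cannot be told apart. Its mutant libraries were again all above wild type, with a saline fold of 1.14 (1.02 to 1.28) and an adjusted p of 0.530 in edgeR. Pmvk (chr3:89454541-89469013, plus strand), phosphomevalonate kinase, stood at 31.7, 33.2 and 34.9 CPM in wild type, 40.0, 37.4 and 35.7 CPM with saline, and 40.0 and 39.8 CPM with romidepsin, and here too the wild-type libraries were the 3 lowest. Its saline fold was 1.14 (0.997 to 1.29) at an adjusted p of 0.599. Idi1 (chr13:8885501-8892451, plus strand), the isopentenyl diphosphate isomerase, chosen for naming once its values had been seen, stood at 74.4, 74.0 and 83.7 CPM in wild type, 91.6, 79.6 and 96.8 CPM with saline, and 85.8 and 76.9 CPM with romidepsin. Saline replicate 2 lay below wild-type replicate 3, so these groups overlapped, and the saline fold was 1.15 (1.01 to 1.32, adjusted p of 0.557 in edgeR). In Idi1, 30.5% of 50-base stretches occur in other genes. Mvk, Mvd, Fdps and Ggps1 had saline folds of 1.09, 1.01, 1.06 and 1.06, with intervals that all included 1.

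**Figure D3:**
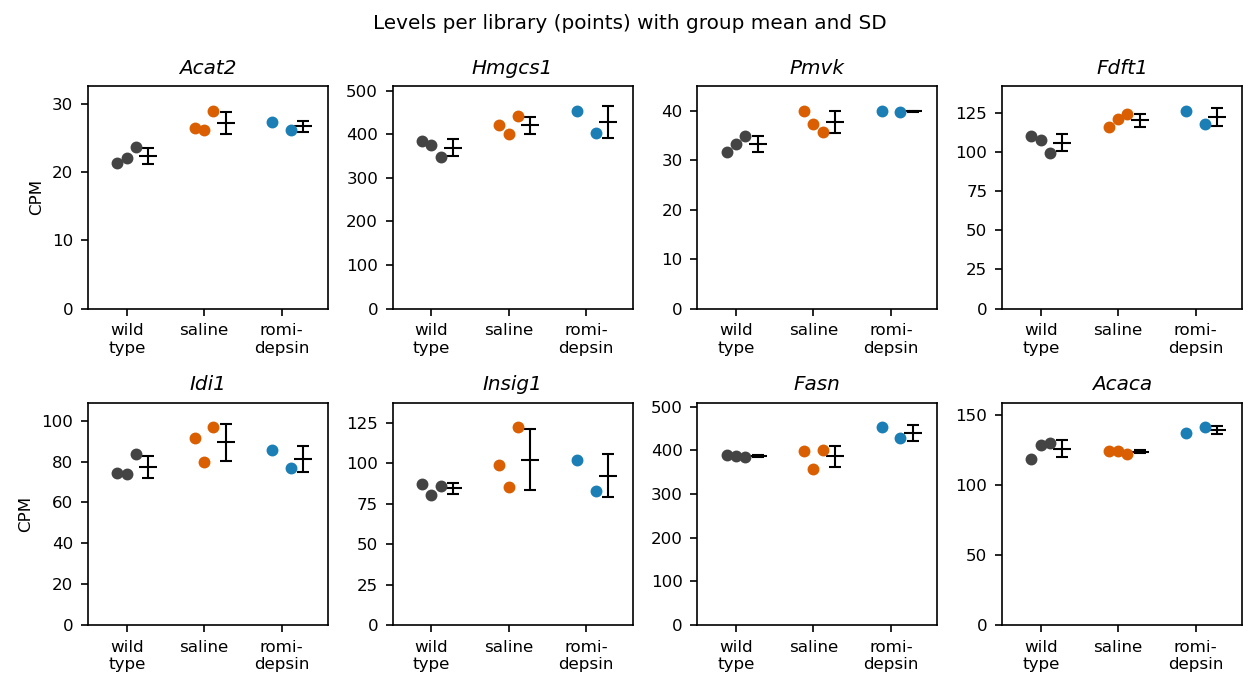
CPM per library (points) with the group mean and SD (bars, n = 3, 3 and 2) for 8 members, with axes from 0. For Acat2, Hmgcs1, Pmvk and Fdft1 the 5 mutant libraries lie above the 3 wild-type ones, and for Fasn and Acaca the 2 romidepsin libraries lie above the other 6.

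Among genes from squalene to cholesterol, Fdft1 (chr14:63145150-63179578, minus strand), squalene synthase, stood at 110.3, 108 and 99.6 CPM in wild type, 116, 121 and 124 CPM with saline, and 126 and 118 CPM with romidepsin. The 3 wild-type libraries were the lowest, and the saline fold was 1.13 (1.02 to 1.26, log2 0.18, SE 0.073, adjusted p of 0.525 in edgeR). Exons of Ctsb on the opposite strand overlap 18.3% of its exon bases, and the counting is not stated to use strand. Lss (chr10:76531588-76557138, plus strand) stood at 37.8, 43.2 and 51.3 CPM in wild type, 57.4, 39.2 and 56.0 CPM with saline, and 59.3 and 50.01 CPM with romidepsin. Saline replicate 2 lay within the wild-type range, and the fold of 1.15 had an interval of 0.925 to 1.44. The other 10 genes of this branch had saline folds from 0.976 (Sc5d) to 1.09 (Msmo1), and the interval of each included 1. They include Msmo1, Nsdhl and Hsd17b7, which act together to remove the C4 methyl groups, the isomerase Ebp, at 1.00 (0.791 to 1.27), and the reductase Dhcr7, at 0.982 (0.822 to 1.17).

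Of the regulators, Insig1 (chr5:28071363-28078662, plus strand) stood at 87.0, 80.5 and 85.7 CPM in wild type, 98.8, 85.0 and 122 CPM with saline, and 102 and 82.7 CPM with romidepsin. Saline replicate 3 alone was far above the rest, while saline replicate 2 lay within the wild-type range, and the fold was 1.21 (1.01 to 1.43) with an adjusted p of 0.560 in edgeR. Srebf2 (chr15:82147181-82205379, plus strand), the SREBP that acts mainly on sterol genes, stood at 279, 261 and 240.2 CPM in wild type, 256, 249 and 261 CPM with saline, and 273 and 268 CPM with romidepsin. Its saline libraries lay inside the wild-type range, with a fold of 0.983 (0.881 to 1.10). Srebf1 (chr11:60199089-60222581, minus strand) stood at 38.3, 39.1 and 50.2 CPM in wild type, 48.3, 35.8 and 48.7 CPM with saline, and 44.4 and 38.3 CPM with romidepsin, with overlapping groups and a fold of 1.04 (0.855 to 1.27). The activity of SREBPs depends on their cleavage, which transcript levels do not measure. Stard4, a cytosolic sterol carrier, stood at 25.3, 25.6 and 24.4 CPM in wild type, 25.9, 26.6 and 31.0 CPM with saline, and 27.9 and 24.5 CPM with romidepsin. Its saline libraries were just above wild type, and the fold was 1.10 (0.947 to 1.29).

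Fatty acid genes were close to wild type in the saline group, with intervals between 0.772 and 1.18. Acly (chr11:100476353-100528000, minus strand), which makes cytosolic acetyl-CoA from citrate, stood at 208, 199 and 178 CPM in wild type, 202, 203 and 196 CPM with saline, and 213 and 194 CPM with romidepsin. Its saline fold was 1.03 (0.916 to 1.15), and groups overlapped. Fasn, fatty acid synthase, had a saline fold of 1.00 (0.897 to 1.11) and Acaca, acetyl-CoA carboxylase, 0.983 (0.887 to 1.09). Elovl6, which extends palmitate, had 0.980 (0.862 to 1.11). The desaturases varied more between libraries of a group than between groups. Scd1 (chr19:44394455-44407879, minus strand) stood at 199, 233 and 263 CPM in wild type, 248, 178 and 235 CPM with saline, and 268 and 211 CPM with romidepsin, and Scd2 (chr19:44293674-44306864, plus strand), 87.6 kb from it, at 1433, 1614 and 1836 CPM in wild type, 1689, 1391 and 1701 CPM with saline, and 1672 and 1555 CPM with romidepsin. Both were low in wild-type replicate 1 and saline replicate 2, and the saline folds were 0.953 (0.772 to 1.18) and 0.979 (0.839 to 1.14). Fads1 (chr19:10182888-10196877, plus strand) stood at 279, 290.1 and 368 CPM in wild type, 349, 258 and 309 CPM with saline, and 354 and 310.2 CPM with romidepsin. Fads2 (chr19:10062765-10101746, minus strand), the delta-6 desaturase 81.1 kb from it, stood at 102, 109 and 126 CPM in wild type, 122, 101 and 110.3 CPM with saline, and 122 and 121 CPM with romidepsin. These too were lowest in saline replicate 2 and highest in wild-type replicate 3, with saline folds of 0.977 (0.814 to 1.17) and 0.990 (0.864 to 1.13).

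In romidepsin-treated against saline-treated mutants, 0 of 33 members and 0 of 14809 genes (0%) passed in edgeR, and DESeq2 called 2 genes, neither a member. This comparison shares the saline libraries with the first. At an unadjusted p under 0.05 edgeR had 2 members, Fasn and Acaca, both higher (6.06% of members). Among all genes 3.26% reached that level and 1.73% did so upward. Fasn (chr11:120805846-120824547, minus strand) stood at 389, 386 and 385 CPM in wild type, 399, 358 and 402 CPM with saline, and 453 and 428 CPM with romidepsin. Both romidepsin libraries were above the other 6, and the fold over saline was 1.14 (1.01 to 1.29, log2 0.19, SE 0.082, unadjusted p of 0.0360 and adjusted p of 1.00 in edgeR). Acaca (chr11:84129672-84401651, plus strand), which supplies malonyl-CoA to fatty acid synthase, stood at 119, 129 and 130.3 CPM in wild type, 125, 124 and 122 CPM with saline, and 137 and 141 CPM with romidepsin. It too was highest in both romidepsin libraries, with a fold of 1.13 (1.00 to 1.26, unadjusted p of 0.0447 and adjusted p of 1.00 in edgeR). Of Acaca's 50-base stretches, 52.6% occur in Gm5182.

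By role, 7 of 8 fatty acid genes had a romidepsin fold above 1 over saline (median log2 0.12), as had 10 of 12 from squalene to cholesterol (0.066), 5 of 8 mevalonate genes (0.011) and 1 of 5 regulators (-0.082), against 49% of all genes (-0.0029). Without saline replicate 2 the fatty acid count was 5 of 8 (0.023), that from squalene to cholesterol 6 of 12 (-0.0098) and that of the mevalonate genes 2 of 8 (-0.039). Without romidepsin replicate 1 these were 4 of 8 (0.0093), 7 of 12 (0.018) and 2 of 8 (-0.059). The regulators had 3 of 5 above 1 without saline replicate 3 or without romidepsin replicate 2. Endothelial and mural markers were above 1 in 10 of 10 (0.29), 3 of them at an unadjusted p under 0.05. Olfactory bulb markers had 0 of the 4 tested (-1.60), 3 at such a p (3.26% of all genes). Meningeal and fibroblast markers had 0 of 8 (-0.30). Oligodendrocyte markers had 0 of 10 (-0.20), precursor 5 of 5 (0.10) and microglial 7 of 8 (0.052), with 1 each at such a p. Astrocyte and neuron markers each had 7 of 10. The part of these cell types was not tested. In the mevalonate branch, Fdps (chr3:89093588-89101959, minus strand), farnesyl diphosphate synthase, stood at 63.2, 65.5 and 63.1 CPM in wild type, 65.6, 64.6 and 73.9 CPM with saline, and 75.1 and 74.3 CPM with romidepsin. The romidepsin libraries were the highest, though saline replicate 3 was close, and the fold was 1.10 (0.967 to 1.252). Since 86.4% of Fdps's 50-base stretches occur in other genes, chiefly the overlapping Gm43738, its count is uncertain. Ggps1 (chr13:14050659-14063488, minus strand), geranylgeranyl diphosphate synthase, stood at 38.4, 40.6 and 36.1 CPM in wild type, 39.1, 47.3 and 35.8 CPM with saline, and 36.4 and 35.9 CPM with romidepsin. Saline replicate 2 alone was high, and the fold was 0.888 (0.744 to 1.06).

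In the sterol branch, Lbr (chr1:181815335-181843046, minus strand), the lamin B receptor and a C14-reductase, stood at 12.1, 12.7 and 14.2 CPM in wild type, 13.3, 13.3 and 14.0 CPM with saline, and 12.4 and 9.88 CPM with romidepsin. Both romidepsin libraries were below all 3 saline libraries, with a fold of 0.826 (0.655 to 1.04). Opposite-strand exons, chiefly of Dnah14, overlap 9.24% of Lbr's exon bases, and 11.3% of its 50-base stretches occur in Dnah14. Sqle (chr15:59315077-59331192, plus strand), squalene epoxidase, stood at 73.9, 79.0 and 67.8 CPM in wild type, 75.5, 67.2 and 84.0 CPM with saline, and 85.1 and 82.5 CPM with romidepsin, with a fold of 1.11 (0.955 to 1.29) and groups that overlapped. Cyp51 (chr5:4081145-4104746, minus strand), lanosterol demethylase, stood at 91.9, 98.1 and 97.8 CPM in wild type, 102, 94.6 and 101 CPM with saline, and 110.4 and 105 CPM with romidepsin, highest in the 2 romidepsin libraries, with a fold of 1.08 (0.963 to 1.22). Insig1 and Srebf2, whose values are above, had folds of 0.907 (0.745 to 1.10) and 1.06 (0.937 to 1.20). Groups did not overlap for 6 of 33 members (5 higher: Fdps, Cyp51, Srebf2, Acaca and Fasn; 1 lower: Lbr), against 20.9% of all genes (10.8% higher and 10.2% lower). Both romidepsin libraries were above the other 6 for 4 of 33 (Fdps, Cyp51, Acaca and Fasn), or 12.1%, against 2.74% of all genes. The members' median of 0.026 became -0.03 without romidepsin replicate 1 and -0.01 without saline replicate 2, so the direction of the list as a whole rested on these libraries.

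Against wild type, romidepsin-treated mutants had 0 of 33 members past the threshold and 1 of 14809 genes (0.00675%). Unadjusted p was under 0.05 for 6 members, all higher, against 3.24% of all genes in either direction and 1.46% upward. These were Pmvk, at a fold of 1.20 (1.04 to 1.39), Fdps at 1.17 (1.03 to 1.33), Fdft1 at 1.15 (1.02 to 1.30), Hmgcs1 at 1.16 (1.02 to 1.32), Acat2 at 1.19 (1.02 to 1.41) and Fasn at 1.14 (1.01 to 1.29), each with an adjusted p of 0.999 in edgeR. Fold changes were above 1 for 27 of 33 members (median log2 0.091), against 50% of all genes, and for 18 of 33 without romidepsin replicate 1. Microglial markers were above 1 in 8 of 8 here (median log2 0.11), with 2 at an unadjusted p under 0.05. Meningeal and fibroblast markers were above 1 in 8 of 8 (0.32), with 1 at such a p. Astrocyte and neuron markers were each above 1 in 8 of 10 (0.041 and 0.081), with 1 neuron marker at such a p. Oligodendrocyte markers were above 1 in 0 of 10 (-0.30), with 1 at such a p, and those of their precursors in 3 of 5 (0.066). Endothelial and mural markers had 3 of 10 (-0.14) and olfactory bulb markers 1 of the 4 tested (-0.77). The part of these cell types in the members' values was not tested. Groups did not overlap for 12 of 33 members, 11 of them higher, against 18.4% of all genes (9.34% higher and 9.08% lower). The one lower member, Scap (chr9:110333288-110384950, plus strand), stood at 103, 106 and 103 CPM in wild type, 93.8, 93.9 and 114 CPM with saline, and 99.4 and 93.4 CPM with romidepsin, with a fold of 0.928 (0.807 to 1.07). An opposite-strand gene overlaps 13.2% of its exon bases. Side by side for the saline and romidepsin groups, Acat2 stood 1.21 and 1.19 times wild type, Hmgcs1 1.14 and 1.16, Pmvk 1.14 and 1.20, and Fdft1 1.13 and 1.15. Both comparisons share the wild-type libraries.

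The mean of the 2 mutant groups against wild type was compared after the data had been seen. It gave 0 of 33 members and 1 of 14809 genes (0.00675%). At an unadjusted p under 0.05 there were 5 members, all higher (Acat2, Fdft1, Hmgcs1, Pmvk and Fdps), against 6.35% of all genes and 2.61% upward, and 27 of 33 members had a fold above 1, against 50.8%. Microglial markers were above 1 in 8 of 8 (median log2 0.086), with 2 at an unadjusted p under 0.05. Meningeal and fibroblast markers were above 1 in 8 of 8 (0.48), with 4 at such a p, all higher. Endothelial and mural markers were above 1 in 2 of 10 (-0.27), with 5 at such a p, all lower. Oligodendrocyte markers were above 1 in 0 of 10 (-0.19) and those of their precursors in 2 of 5 (-0.058). Astrocyte markers had 8 of 10 (0.026), neuron markers 6 of 10 (0.040) and olfactory bulb markers 2 of the 4 tested (0.034). Of these, 1 neuron and 1 olfactory bulb marker had such a p. The part of these cell types was not tested. The smallest member p belonged to Acat2, at a fold of 1.20 (1.06 to 1.37) and an adjusted p of 0.644 in edgeR, followed by Fdft1 at 1.14 (1.04 to 1.26) and 0.652. All 5 mutant libraries were above all 3 wild-type libraries for 4 of 33 members (Acat2, Hmgcs1, Pmvk and Fdft1), or 12.1%, against 2.48% of all genes, or 4.97% with all mutant libraries on the same side in either direction. As given above, the groups overlapped for the sum of Acat2 and its copy Acat3, and opposite-strand genes overlap exons of Hmgcs1 and Fdft1.

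Libraries of one group also differed among themselves. The median log2 difference of the 8 mevalonate genes from the wild-type mean was -0.0067, -0.0088 and 0.069 in wild type, 0.16, 0.084 and 0.21 with saline, and 0.21 and 0.10 with romidepsin. All 5 mutant libraries were above all 3 wild-type libraries in it, though saline replicate 2 (0.084) was close to wild-type replicate 3 (0.069). For the 12 genes from squalene to cholesterol the groups overlapped. Their medians were -0.046, 0.0095 and 0.028 in wild type, 0.056, -0.025 and 0.15 with saline, and 0.17 and 0.12 with romidepsin. For the 8 fatty acid genes the medians were -0.13, 0.0083 and 0.11 in wild type, 0.056, -0.13 and 0.020 with saline, and 0.13 and -0.0010 with romidepsin, so wild-type replicate 3 was higher than every saline library. Astrocyte markers had medians of -0.17, -0.076 and 0.29 in wild type, 0.19, -0.11 and 0.017 with saline, and 0.12 and -0.028 with romidepsin, and like the fatty acid genes were low in wild-type replicate 1 and saline replicate 2 and high in wild-type replicate 3. Oligodendrocyte markers had medians of -0.48, 0.26 and 0.21 in wild type, -0.15, -0.46 and 0.38 with saline, and -0.41 and -0.13 with romidepsin. They too were lowest in wild-type replicate 1 and saline replicate 2, as were the precursor markers (-0.23 and -0.38). Within the saline group the mevalonate and oligodendrocyte medians had the same order, lowest in replicate 2 and highest in replicate 3. Within wild type and within romidepsin their orders differed. The mevalonate medians were also, like those of astrocyte markers, highest in replicate 3 within wild type, lowest in replicate 2 within saline and higher in replicate 1 within romidepsin. Within saline, though, the astrocyte median was highest in replicate 1 and the mevalonate median in replicate 3. Microglial medians were -0.21, -0.068 and 0.29 in wild type, 0.11, -0.0071 and 0.10 with saline, and 0.26 and 0.026 with romidepsin. The part of glial RNA in any of these groups of genes was not tested.

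**Figure D4:**
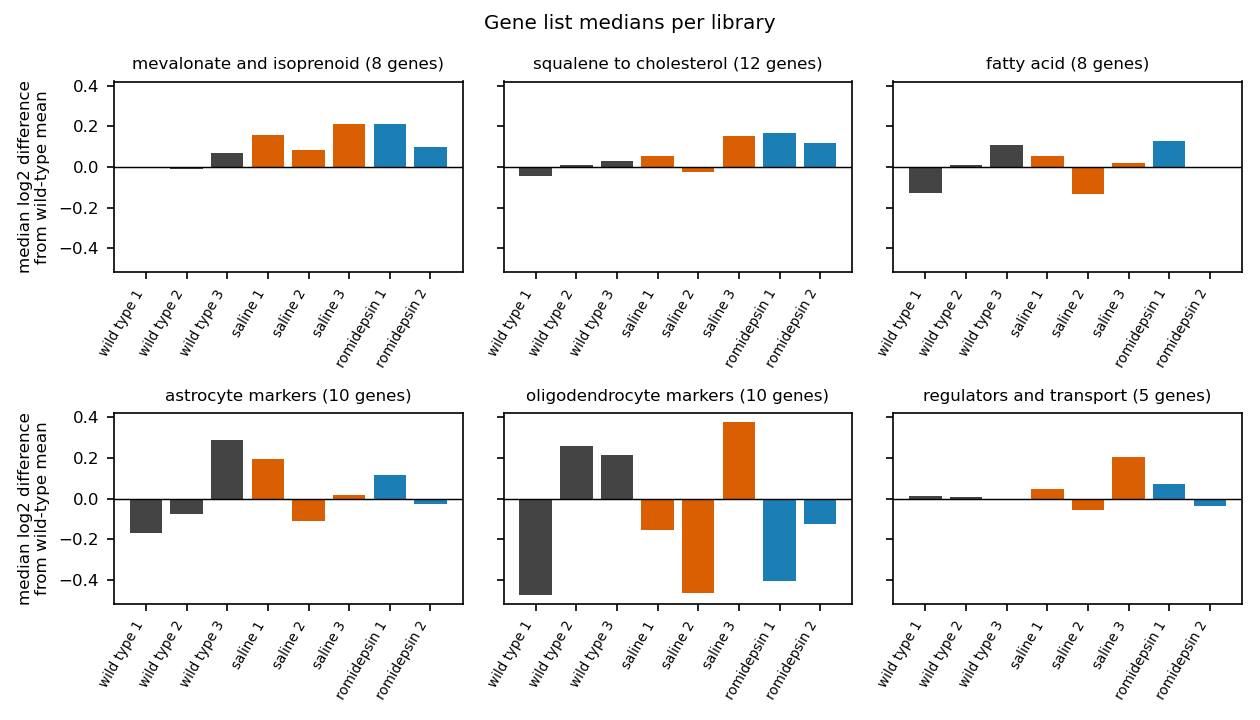
Median log2 difference from the wild-type mean in each library for the 4 roles and for astrocyte and oligodendrocyte markers (bars from 0). Mevalonate bars are above the wild-type bars in all 5 mutant libraries. Fatty acid bars, like astrocyte and oligodendrocyte bars, are lowest in wild-type replicate 1 and saline replicate 2.

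Romidepsin replicate 1 held the highest level of 13 of the 33 members, saline replicate 3 of 9 and wild-type replicate 3 of 6. Saline replicate 2 held the lowest level of 10, wild-type replicate 1 of 8 and wild-type replicate 3 of 7. The SD of log2 levels within groups had a median of 0.12 over the members and 0.15 over all genes tested. It ran from 0.041 for Sc5d, the lathosterol oxidase, to 0.42 for Tm7sf2, which was at 8.70 CPM in saline replicate 2 and 19.1 in saline replicate 3. Same-strand exons, chiefly of Vps51, overlap 12.1% of Tm7sf2's exon bases. Lss (0.25), Scd1 (0.23), Ebp (0.23), Srebf1 (0.22) and Fads1 (0.20) were also among the more variable.

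**Figure D5:**
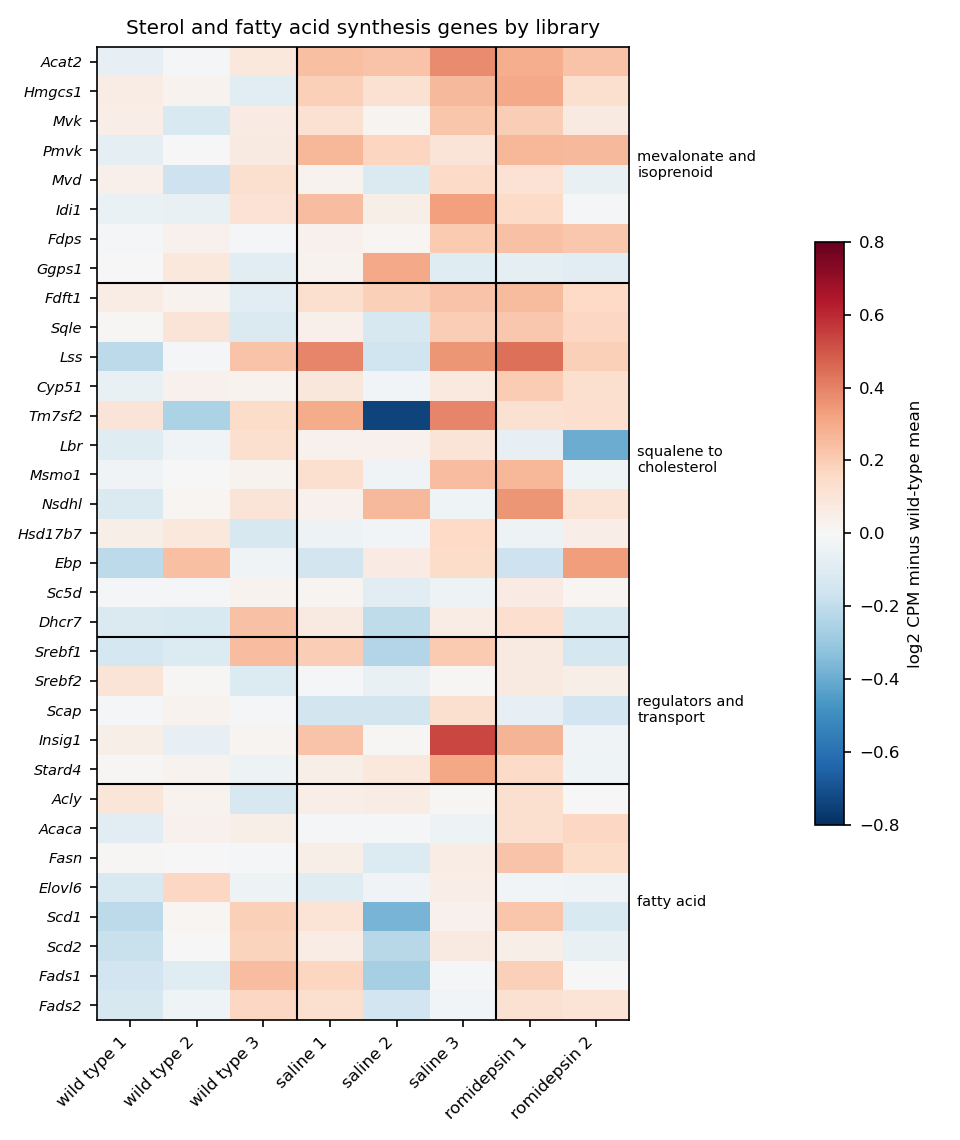
Log2 CPM minus the wild-type mean for each member (rows, by role) and library (columns), on a colour scale from -0.8 to 0.8. The mevalonate rows are mostly red in the mutant columns, and the saline 2 column is mostly blue in the fatty acid rows.

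Of 58 other genes of these pathways, in 3 lists, 0 passed in any comparison. Of 21 genes of sterol sensing, transport and use, 10 had a fold above 1 in saline against wild type. An unadjusted p under 0.05 was reached by 4 of the 21, 2 higher and 2 lower, against 8.39% of all genes. The smallest were Scarb1, a lipoprotein receptor, at 0.764 (0.649 to 0.900), and Lrp8, a receptor for reelin and lipoproteins, at 0.830 (0.741 to 0.930), both with an adjusted p of 0.359 in edgeR. Scarb1 stood at 23.9, 23.3 and 23.0 CPM in wild type, 19.3, 15.7 and 18.5 CPM with saline, and 21.6 and 19.9 CPM with romidepsin. Lrp8 stood at 112, 131 and 119.9 CPM in wild type, 103, 103 and 95.5 CPM with saline, and 115 and 114 CPM with romidepsin, and in romidepsin against saline its fold was 1.14 (1.00 to 1.29). The 10 endothelial and mural markers, in which Scarb1 is not included, summed to 248, 264 and 299.9 CPM in wild type, 237, 169 and 204 CPM with saline, and 272 and 219 CPM with romidepsin. Of 28 genes of fatty acid activation, elongation and binding, 18 were above 1 and 1 had an unadjusted p under 0.05, Elovl4, an elongase of very long chains, at 1.17 (1.02 to 1.36). Of 9 genes that use isoprenoids for prenylation, ubiquinone or dolichol, 4 were above 1 and 0 had an unadjusted p under 0.05. In romidepsin against saline, 12 of 21, 10 of 28 and 4 of 9 genes of these lists were above 1, and none had an unadjusted p under 0.05, against 3.26% of all genes. Against wild type the counts were 12 of 21, 14 of 28 and 5 of 9, and 1 gene had such a p, Rnf139, an endoplasmic reticulum ubiquitin ligase, at 1.17 (1.01 to 1.35).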

How the data were processed

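Poly(A) RNA of mouse prefrontal cortex was sequenced in 8 libraries. The authors deposited 1 table of raw counts for each library, with genes named by symbol. Per the submitters' processing notes, the authors used bcl2fastq 2.17.1.14, aligned reads to mm10/GRCm38 with TopHat2 2.1.1 and counted them with HTSeq 0.6.1. Neither the annotation nor the strand setting is given in the sources used here. The 5 summary entries that 7 files hold (no feature, not unique and the like) were left out. In those files 32.4% to 35.3% of alignments fell on genes.

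Counts were tested with edgeR 4.0.16 in R 4.3.3: filterByExpr (14809 genes kept, 9611 removed), scaling by TMM (the trimmed mean of M-values), a robust quasi-likelihood fit with a term per group over all 8 libraries, and Benjamini-Hochberg adjustment over all genes tested, at 0.05. Scripts were tested on simulated counts. No pair of libraries agreed within sampling noise (smallest chi-square per degree of freedom 3.12). The members and lists were chosen with earlier results of these data known. The study's sources state no statistical model.

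Members given in full were, in each comparison and role, the 2 with the smallest unadjusted p, plus Srebf1, Srebf2, Insig1, Scd1, Scd2, Fads1 and Fads2, and of each other list the 1 or 2 with the smallest p. Marker lists were those of neurons, astrocytes, oligodendrocytes and their precursors, microglia, endothelial and mural cells, meninges and fibroblasts, and olfactory bulb. Lengths and coordinates are from GENCODE M21 (GRCm38) and promoters from RefSeq (GRCm38.p6). Library medians used log2 CPM with a prior count of 2. Alternatives were upper-quartile, DESeq2 or library-total scaling, DESeq2 1.42.0, limma-voom (limma 3.58.1), other filters, only the groups compared, a replicate block, and each library left out.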

Additional observations from a re-analysis of the deposited data

How the results depend on the processing

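No member passed in any of the 4 comparisons under any of the alternatives run, and the lowest adjusted p of a member was 0.296 (Idi1, saline against wild type, without wild-type replicate 3). Of the 33 members, 17 kept their direction in all 17 settings in saline against wild type, 14 in romidepsin against saline, 17 in romidepsin against wild type and 18 for the mean of the mutants. Counts over all genes were less stable. In saline against wild type, edgeR called 1 gene, DESeq2 31, edgeR without a filter 12, with only the 2 groups 2, and 1 to 54 with a library left out. In romidepsin against saline, edgeR called 0 (483 at an unadjusted p under 0.05), DESeq2 2, and 0 to 3 were called with a library left out. In romidepsin against wild type edgeR called 1, 0 with upper-quartile or library-total scaling, DESeq2 4, edgeR without a filter 2, and 0 to 3 with a library left out. For the mean of the mutants the count was 1, 9 with DESeq2 and 1 to 11 with a library left out. Leaving out a library moved the members' median log2 fold from -0.01 to 0.08, from -0.03 to 0.09, from 0.05 to 0.15 and from 0.05 to 0.11 in the 4 comparisons, and the members above 1 from 16 to 26, from 14 to 28 and from 18 to 27 in the first 3. Whether the replicate numbers pair the libraries is not known. In their deviations from group means, same-numbered wild-type and saline libraries correlated at -0.18, 0.02 and -0.04. Wild-type and romidepsin libraries correlated at -0.03 and 0.08, and saline and romidepsin libraries at 0.10 and 0.06. Not every library correlated best with its own number. Weak correlations cannot exclude pairing, and the deviations of the 2 romidepsin libraries mirror each other by construction. With a replicate block, 4, 0, 0 and 3 genes were called in the 4 comparisons, and 0 members. The group of 2 libraries limits the precision of every romidepsin value.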
